A study of Homo sapiens with 3 samples.

Results

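Matrix metalloproteinases (MMPs) and their tissue inhibitors (TIMPs) were followed on microarrays of the established human cell line HT29, which derives from a colon adenocarcinoma. The 10 genes are MMP1, MMP7, MMP9, MMP10, MMP14, MMP15, MMP24, TIMP1, TIMP2 and TIMP3, chosen by their symbols out of 21606 genes with a value, and each was measured by 1 probe out of 50599. Cells were grown on tissue culture polystyrene plates (TCP, labelled 2D), on chitosan membranes (CS) or on chitosan membranes grafted with hyaluronan (CSHA), and the total RNA of each culture went onto 1 single-colour array, all on the same slide. All cultures were of the same line, with no further treatment named in the labels. The time of culture before the RNA was taken is not given for the arrays in the sources used here. There was 1 array per condition, so the differences between substrates could not be checked against replicate cultures or tested.

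MMPs are zinc endopeptidases that cut collagens, laminins and other matrix proteins, and also shed or cleave proteins of the cell surface. They are made as inactive proenzymes, some of them secreted and others held at the plasma membrane, and TIMPs block the active enzymes by binding to the catalytic site. In colon tumours MMP7, or matrilysin, is made by the epithelial tumour cells themselves and is a known target of Wnt signaling, whereas many other MMPs are largely made by stromal and inflammatory cells. MMP14 is a membrane-type MMP that cells use when they move through matrix, and the study followed it together with the chemokine receptor CXCR4 as a gene of cell motility. By RT-PCR and western blot, the study reported more of MMP14 and of CXCR4 in HT29 on each membrane. It also reported less migration after knockdown of MMP14. Those measurements are separate from the arrays described here.

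MMP7, MMP10 and MMP1 belong to a run of 9 neighbouring MMP genes on chromosome 11, in the order MMP7, MMP20, MMP27, MMP8, MMP10, MMP1, MMP3, MMP12 and MMP13 of the RefSeq annotation. MMP7 was the only gene of the 9 that was well above background on any array. The 100 bases before the start of MMP7 (GRCh38.p14, chr11:102530748-102530847, minus strand) and of MMP10 (chr11:102780629-102780728, minus strand) are shown because a detected and an undetected gene of this run share the same pair of motifs. The same stretch of MMP14 (chr14:22836485-22836584, plus strand) is shown as a promoter with neither of them. Capitals mark the AP-1 motif TGANTCA and the TATA box TATAAA, which were searched on both strands.
MMP7: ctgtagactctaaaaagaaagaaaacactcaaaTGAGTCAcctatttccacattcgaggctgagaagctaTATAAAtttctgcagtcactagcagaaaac
MMP10: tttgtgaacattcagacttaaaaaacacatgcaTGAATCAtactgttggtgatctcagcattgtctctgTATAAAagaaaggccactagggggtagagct
MMP14: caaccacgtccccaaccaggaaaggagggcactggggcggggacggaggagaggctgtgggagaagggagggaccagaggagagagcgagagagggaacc
In both MMP7 and MMP10 the AP-1 motif began 67 bases before the start, and the TATA box began 30 and 31 bases before it. The promoter table of RefSeq held 7 of the 10 genes, without MMP1, MMP9 and TIMP2, and the other 5 promoters had no match to either motif in the 250 bases before the start. Over all 35116 promoters of the table, 2308 held the AP-1 motif and 3763 the TATA box in the same window. The TCF/LEF motifs CTTTGAT and CTTTGTT were found in none of the 7 promoters and in 2316 of all promoters. A match is a description of the letters and not a binding site.

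The processed signal of a spot is its brightness after the scanner software has removed the background, and normalized values are its log2 minus that of the 75th percentile of the array, namely 354.0 for TCP, 422.5 for CS and 337.2 for CSHA. Probes well above background made up 48.6% of all on TCP, 51.1% on CS and 49.9% on CSHA. Where a probe was printed many times, its spots had a median SD (log2) of 0.07 on TCP, 0.06 on CS and 0.08 on CSHA. For a gene with a single spot, the spread among spots given after a ± sign is that of the replicated probes nearest to it in brightness. It takes no account of differences between cultures, or of the error that the scanner software attached to each spot. On TCP that error was 1066.8 beside a signal of 10667.7 for MMP7, and 230.5 beside 2304.0 for TIMP2. All 10 markers of colon epithelial cells were well above background on every array. Of 9 fibroblast markers, SPARC and VIM on TCP and PDGFRB on CSHA were well above background, with a summed signal of 60.3 to 129.9 over the list, and COL1A1, COL1A2, COL3A1, DCN and LUM were at background on every array. CD14 and PTPRC were the 2 of 8 markers of macrophages and neutrophils that were detected, with a summed signal of 913.0 for TCP, 1504.1 for CS and 1722.0 for CSHA, while CSF1R, CD163, MPO and ELANE were at background. Of 5 endothelial markers, 4 were dimly detected on each array, with a summed signal between 179.8 and 210.3. The part of other cells in the values that follow was not tested, and in such bulk RNA fewer cells that make a transcript and less of it per cell cannot be told apart.

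Of the 10 genes, 7 were well above background on all 3 arrays and 3 on none. None of the 7 differed by 2-fold between any pair of substrates. Among all genes compared, at least 2-fold differences in either direction made up 3.28% of 14460 genes between CS and TCP, 7.00% of 14621 between CSHA and TCP and 4.43% of 14594 between CSHA and CS. Split by direction, the genes at least 2-fold higher were 1.36%, 3.02% and 2.27% in these comparisons, and those at least 2-fold lower were 1.92%, 3.98% and 2.15%. On CS, 4 of the 7 genes were higher than on TCP and 3 lower, with a median log2 difference of 0.11 beside 0.04 for all genes. For CSHA the split was 5 higher to 2 lower, with a median of 0.30 beside 0.13. Over all genes the share above TCP was 56.8% for CS and 61.7% for CSHA, so neither split sets these genes apart. The 4 higher on CS were MMP7, MMP9, MMP14 and MMP24, the 3 lower were MMP15, TIMP1 and TIMP2, and on CSHA TIMP2 was the additional gene above TCP. Each of these signs on CS was kept in all the alternatives for the processing, some of which cannot change the value of these genes. On CSHA so were all but that of MMP15, which turned to 0.23 with scaling to the spike-in probes, a setting that raised every difference of CSHA from TCP by 0.44.

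**Figure D1:**
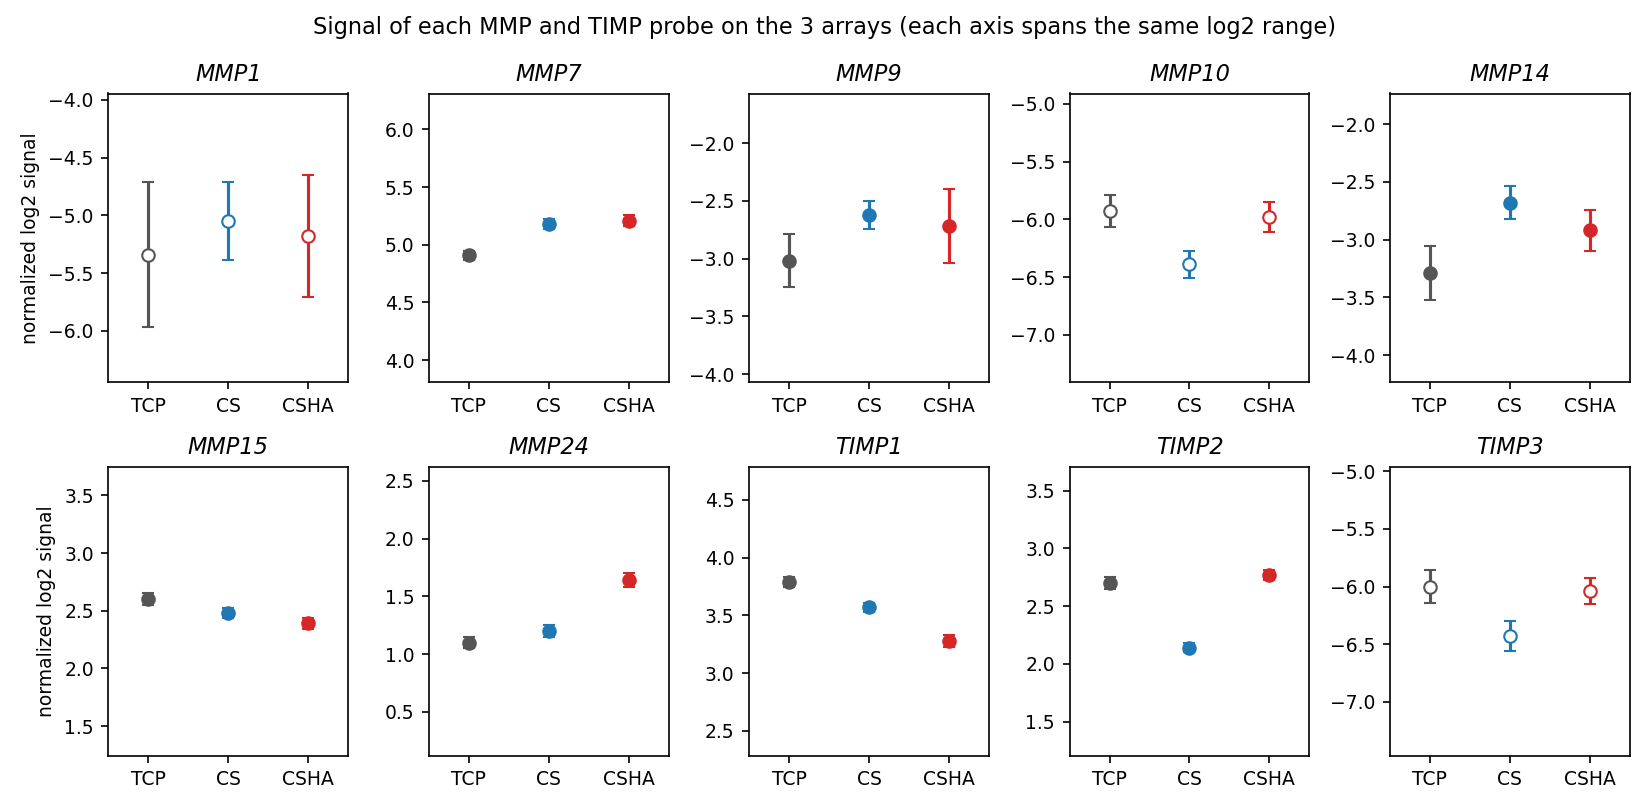
Normalized log2 signal of the probe of each gene on the TCP, CS and CSHA arrays, 1 array each. Bars are the SD among spots on the log2 scale (own spots for MMP1 and MMP9, replicated probes of like brightness for the others), open circles are probes not well above background, and each vertical axis spans the same range. TIMP1 was lower on each membrane than on TCP, TIMP2 was low on CS alone, and MMP1, MMP10 and TIMP3 were not detected.

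Among the secreted enzymes, MMP7 had a processed signal of 10667.7 on TCP, 15340.6 on CS and 12515.8 on CSHA. After the shift its normalized log2 signal was 4.91, 5.18 and 5.21, so that it was lowest on TCP. The difference from TCP was 0.27 ± 0.06 for CS and 0.30 ± 0.06 for CSHA, and the difference of 0.03 between the membranes was within the spread among spots. Both differences were modest among the genes measured, since 32.6% of genes on CS and 51.2% on CSHA differed from TCP by at least as much. Across the alternatives the difference from TCP lay between 0.22 and 0.32 on CS and between 0.24 and 0.74 on CSHA. The difference between the membranes reached 0.41 with spike-in scaling.

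MMP9, a gelatinase that cuts basement membrane collagen, was printed 10 times on each array, and all 10 spots were well above background on each. Its spots had a processed signal of 30.8 to 51.4 on TCP with a median of 46.4, of 60.4 to 78.1 on CS with a median of 70.7, and of 33.1 to 75.7 on CSHA with a median of 51.8. On the normalized log2 scale the mean over spots was -3.02 ± 0.23 (SD, n = 10 spots) for TCP, -2.62 ± 0.12 for CS and -2.72 ± 0.32 for CSHA. The lowest spot of CS, at -2.81, lay just under the highest of TCP, at -2.78, and the spots of CSHA ran from -3.35, within those of TCP, to -2.16, above every spot of CS. MMP9 thus differed from TCP by 0.41 ± 0.08 on CS and 0.30 ± 0.13 on CSHA, where ± is the error of the mean over spots, and the membranes differed by -0.10 ± 0.11, or by 0.28 with spike-in scaling. At least as far from TCP were 17.6% of all genes on CS and 50.8% on CSHA. The size of the difference from TCP depends on the background correction, since it was 0.06 on CS and 0.14 on CSHA in the deposited values, from which no background was subtracted.

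**Figure D2:**
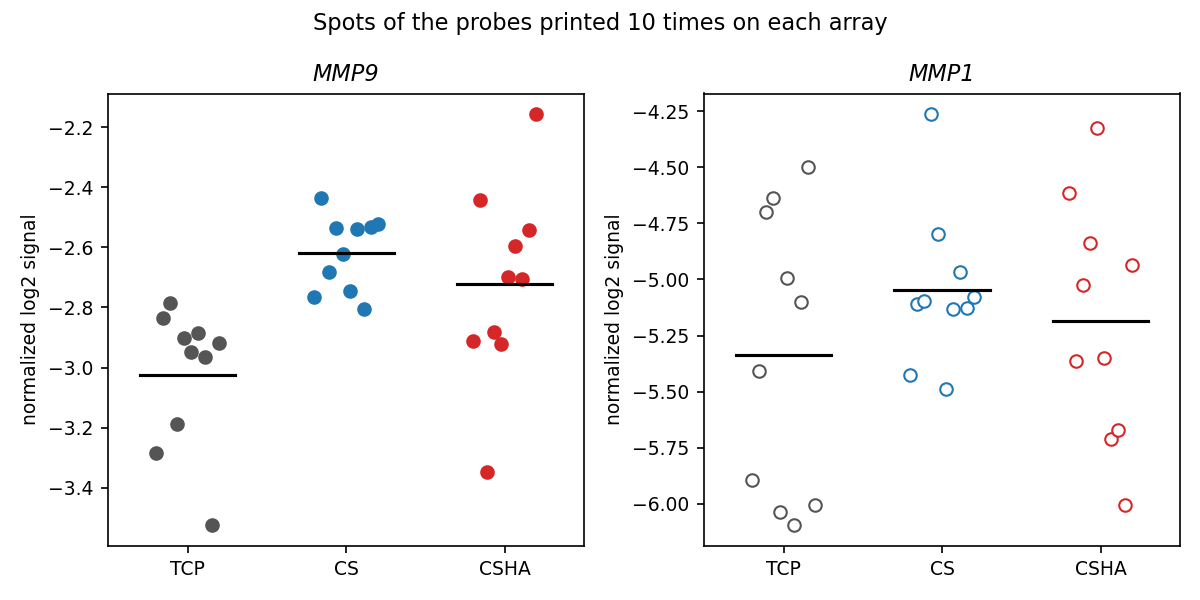
Normalized log2 signal of each of the 10 spots of the MMP9 and MMP1 probes on the TCP, CS and CSHA arrays, with lines at the means. Filled circles are spots well above background and open circles are spots that were not. The MMP9 spots of CS lie almost wholly above those of TCP, and the MMP1 spots of the 3 arrays overlap.

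MMP1, the interstitial collagenase, and MMP10, a stromelysin, were not detected. None of the 10 spots of MMP1 was well above background on any array, and their signals lay between 5.2 and 15.7 on TCP, 9.4 and 22.0 on CS, and 5.3 and 16.8 on CSHA. The lowest probe signal well above background was 24.1, 21.1 and 22.6 on these arrays. The TCP, CS and CSHA signals of MMP10 were 5.8, 5.0 and 5.3, no larger than the error of 5.8, 5.1 and 5.4 that the scanner software attached to it. No difference is given for either gene, and a difference below the limit of detection was not detectable here.

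Of the membrane-type enzymes, MMP14 was measured near the limit of detection. Its processed signals were 36.2 (TCP), 66.0 (CS) and 44.6 (CSHA), with a software error of 6.2, 8.0 and 6.5, and each was well above background. The normalized log2 signal was -3.29, -2.68 and -2.92, highest on CS and lowest on TCP. On CS, MMP14 was 0.61 ± 0.27 above TCP, or 1.53-fold, and 8.4% of all genes on CS differed at least as much. On CSHA it was higher than on TCP by 0.37 ± 0.29, and 42.2% of all genes there differed at least as much. The membranes differed by -0.24 ± 0.23, or by 0.14 with spike-in scaling. The gap between CS and TCP was 2.3 times the spread among spots and that between CSHA and TCP 1.3 times. In the deposited values, without background subtraction, MMP14 was 0.07 above TCP on CS and 0.12 on CSHA, and with normexp and an offset of 50 it was 0.10 above on CS and 0.16 on CSHA, so that CSHA and not CS was the highest.

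MMP15, a further membrane-type enzyme, had a processed signal of 2138.9 on TCP, 2357.1 on CS and 1771.5 on CSHA. Its normalized log2 signal of 2.60, 2.48 and 2.39 put it highest on TCP. Its difference from TCP was -0.12 ± 0.06 on CS and -0.20 ± 0.07 on CSHA, and the latter was 0.23 with spike-in scaling. MMP24, a membrane-type enzyme best known from the nervous system, had signals of 757.6, 974.0 and 1054.5 and normalized log2 values of 1.10, 1.20 and 1.64. TCP and CS were close, at a difference of 0.11 ± 0.07, while CSHA was higher than TCP by 0.55 ± 0.08 and than CS by 0.44 ± 0.07. On CSHA 25.2% of all genes differed from TCP by at least as much as the 0.55 of MMP24.

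**Figure D3:**
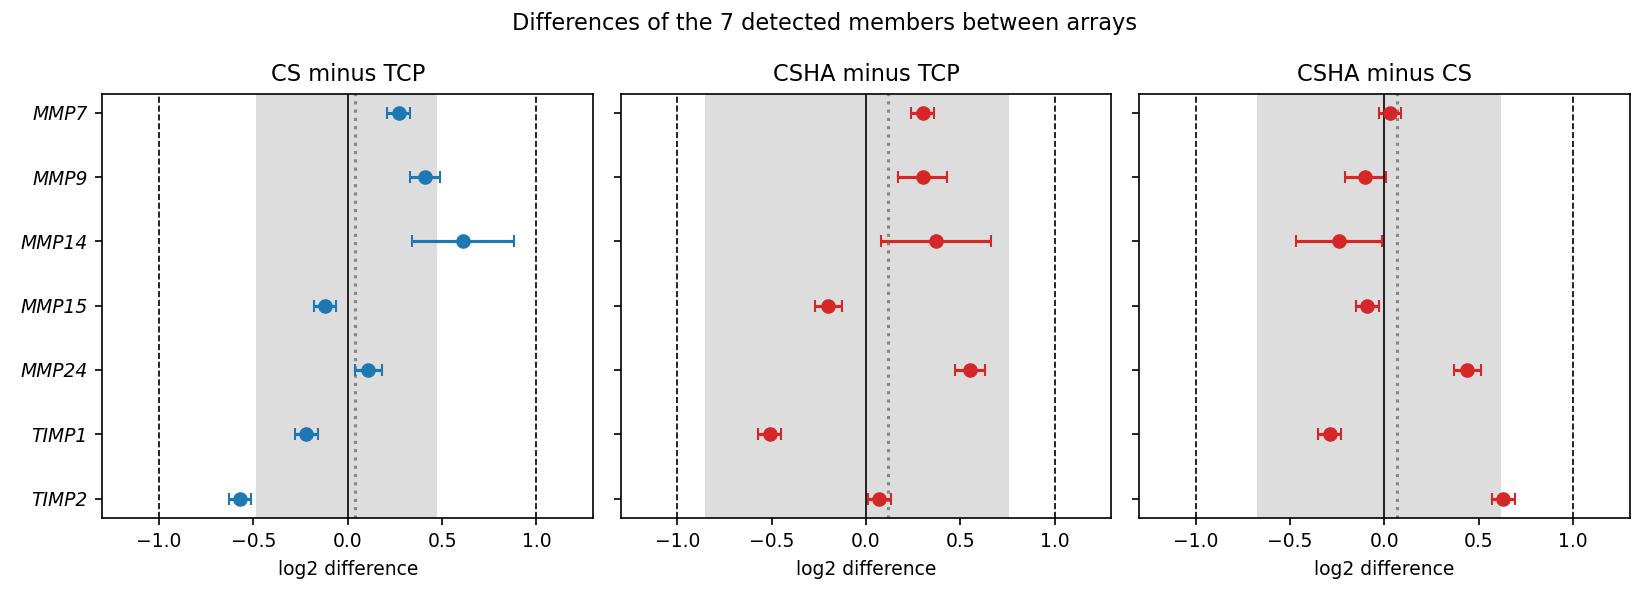
Log2 difference of the 7 detected genes for CS minus TCP, CSHA minus TCP and CSHA minus CS, with bars of 1 SD of the spread among spots. For MMP9 the bar is the error of the mean over its 10 spots. Grey bands hold the middle 90% of all genes measured on both arrays, dotted lines their median, and dashed lines a 2-fold difference, which no gene reached. MMP14 at 0.61 and TIMP2 at -0.57 on CS and TIMP2 at 0.63 between the membranes lie just outside the grey bands.

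Among the inhibitors, TIMP1, which binds most secreted MMPs, had a processed signal of 4898.7 on TCP, 5013.9 on CS and 3272.4 on CSHA. Its normalized log2 signal went from 3.79 for TCP through 3.57 for CS to 3.28 for CSHA, and all neighbours in this order were further apart than the spread among spots. Its difference from TCP was -0.22 ± 0.06 on CS and -0.51 ± 0.06 on CSHA, the lowest value among the 7 genes there. With scaling to the spike-in probes, TIMP1 on CSHA was at -0.08 against TCP and at 0.09 against CS.

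TIMP2, which inhibits MMPs and also bridges MMP14 to the proenzyme of MMP2 at the cell surface, differed most of the 7 genes between the membranes. TCP gave a processed signal of 2304.0, CS 1858.5 and CSHA 2298.1, and its normalized log2 signal was 2.70, 2.14 and 2.77. The value on CS stood apart, while TCP and CSHA differed by 0.07 ± 0.06. TIMP2 was at -0.57 ± 0.06 on CS against TCP, or 1.48-fold lower, and CSHA was higher than CS by 0.63 ± 0.06, or 1.55-fold. As large a difference was found for 9.7% of all genes between CS and TCP and for 13.1% between the membranes. MMP2 was not well above background on any array, with a signal of 5.8 to 6.5.

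TIMP3, an inhibitor that stays bound to the matrix, was not detected. The spot read 5.5 for TCP, 4.9 for CS and 5.1 for CSHA, equal to the software error of the spot on each array.

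**Figure D4:**
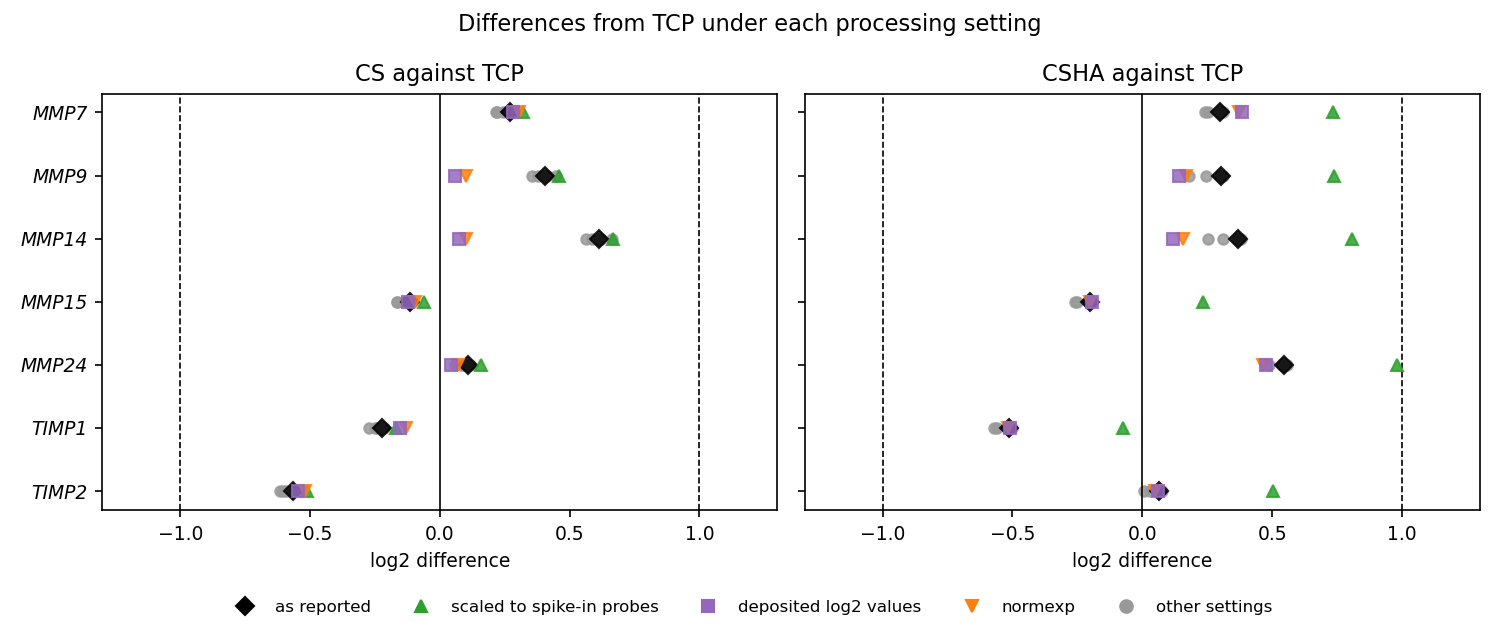
Log2 difference from TCP of the 7 detected genes on CS and on CSHA as reported, with spike-in scaling, with the deposited values, with normexp and with the other settings, dashed lines marking a 2-fold difference. MMP14 and MMP9 on CS lie at 0.07 and 0.06 in the deposited values, and TIMP2 on CS stays between -0.62 and -0.51.

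Outside the 10 genes, the remaining 16 MMPs and TIMP4 were mostly at background. Of these 17 genes 5 were well above background on all arrays, namely MMP17, MMP19, MMP25, MMP28 and TIMP4, and 10 on none. On CS 1 of the 6 compared was above TCP and 5 below, and on CSHA 2 above and 4 below, or 5 of 5 compared above with spike-in scaling. The median of these 5 was 0.4 with that scaling, beside 0.57 for all genes. None of the 6 genes compared reached 2-fold by the reported values. The highest was MMP28 on CS, at 0.08, and MMP17 on CSHA, at 0.34. The lowest was MMP23B, a gene with a near-identical pseudogene copy, which had a signal of 31.7 on TCP and was at background on the membranes, so that its log2 difference from TCP was -0.84 or lower on CS and -0.42 or lower on CSHA.

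The ADAM sheddases release growth factors and receptors from the cell surface. Of 8, 2 of 7 compared were higher on CS and 7 of 8 on CSHA, with medians of -0.13 and 0.23 beside 0.04 and 0.13 for all genes. With spike-in scaling the median on CSHA was 0.66 beside 0.57 for all genes. By that scaling 1 of the 8 was at least 2-fold higher on CSHA, as were 1809 of all 14500 genes compared. ADAM17, the main sheddase of EGF receptor ligands, was the highest on CS at 0.15 and was at 0.56 on CSHA. ADAM12 was the highest on CSHA, at 0.79, and was 1.03 higher there than on CS, with signals of 42.6, 42.8 and 70.0 on TCP, CS and CSHA, while its other 2 probes were at background. ADAM19 was the lowest, with -0.78 on CS and -0.62 on CSHA, and a second probe gave -0.78 and -0.42. The probes of ADAM15 disagreed on CSHA, where the brighter was at 0.10 and the other at -0.92.

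Of 7 ADAMTS proteases, 6 were at background on all arrays. ADAMTS1, which cuts matrix proteoglycans, had signals of 6.3, 97.1 and 23.3 and was well above background on CS alone. It was higher there than on TCP by at least 1.75 on the log2 scale, and its second probe was at background on every array.

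In the plasminogen activation system, which activates several proMMPs, 5 of 9 genes were compared. Of the 5, 2 were higher and 3 lower on each membrane, with medians of -0.19 on CS and -0.32 on CSHA, or 0.12 on CSHA with spike-in scaling. The urokinase gene PLAU was lowest on CS at -0.38 and was at -0.56 on CSHA, and its receptor PLAUR was at -0.19 and -0.86. SERPINB5 was the highest on CS, at 0.16. SERPINF2, the plasmin inhibitor, was the highest on CSHA, at 2.08, by its single probe with signals of 29.8 on TCP, 28.1 on CS and 120.0 on CSHA.

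Of 12 activators, inhibitors and partners of MMPs, 7 were compared, 4 higher on CS and 3 on CSHA. FURIN, the proprotein convertase that activates membrane-type MMPs, was the lowest, at -0.47 on CS and at -1.11 on CSHA, with signals of 125.2, 107.5 and 55.3. CD44, the hyaluronan receptor that can hold MMP9 at the surface, was the highest, at 0.31 and 0.67. LCN2, which binds MMP9, was at 0.27 and 0.18, and RECK, a membrane inhibitor of MMPs, was at background on all arrays. With spike-in scaling, 6 of the 7 genes were higher on CSHA, FURIN was no longer 2-fold lower and 1 gene, CD44, was at least 2-fold higher. The median of the 7 was then 0.22, beside 0.57 for all genes, of which 1809 of 14500 were at least 2-fold higher.

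Transcription factors known to act on MMP promoters, among them the AP-1 subunits, were measured for 15 of 16 genes, of which 10 were higher on CS and 9 on CSHA, and none reached 2-fold by the reported values. With spike-in scaling 12 were higher on CSHA, 2 of them by at least 2-fold, as were 1809 of all 14500 genes compared at that setting. FOSB was the highest on CS at 0.71 and JUN on CSHA at 0.91, while ETV4 was the lowest on each, at -0.23 and -0.87. Among the AP-1 subunits JUNB was at -0.21 and -0.82 and FOS at 0.16 and 0.19, on either side of TCP.

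Of 15 substrates of MMPs and sheddases, 14 were compared, 6 higher on CS and 8 on CSHA, with medians of -0.07 and 0.01, or 11 higher on CSHA with spike-in scaling. The median of the 14 on CSHA was 0.45 with that scaling, beside 0.57 for all genes. COL4A2, a basement membrane collagen, was the highest on CS at 0.66, and EPHA2 the lowest at -0.65. The EGF receptor ligand AREG was the highest on CSHA at 0.92, by both probes alike at 0.92 and 0.93, and HBEGF was the lowest at -1.12. With spike-in scaling HBEGF was no longer 2-fold lower, and 3 of the 14 lay 2-fold or more above TCP on CSHA. Of all 14500 genes compared at that setting, 1809 were at least 2-fold higher on CSHA. CXCR4 was 0.59 above TCP on CS and 0.84 on CSHA, beside 0.61 and 0.37 for MMP14, which was near the limit of detection. CXCR4 was bright, with signals of 6709.1 on TCP, 12039.5 on CS and 11454.2 on CSHA. With spike-in scaling CXCR4 was at 1.28 on CSHA and MMP14 at 0.81.

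**Figure D5:**
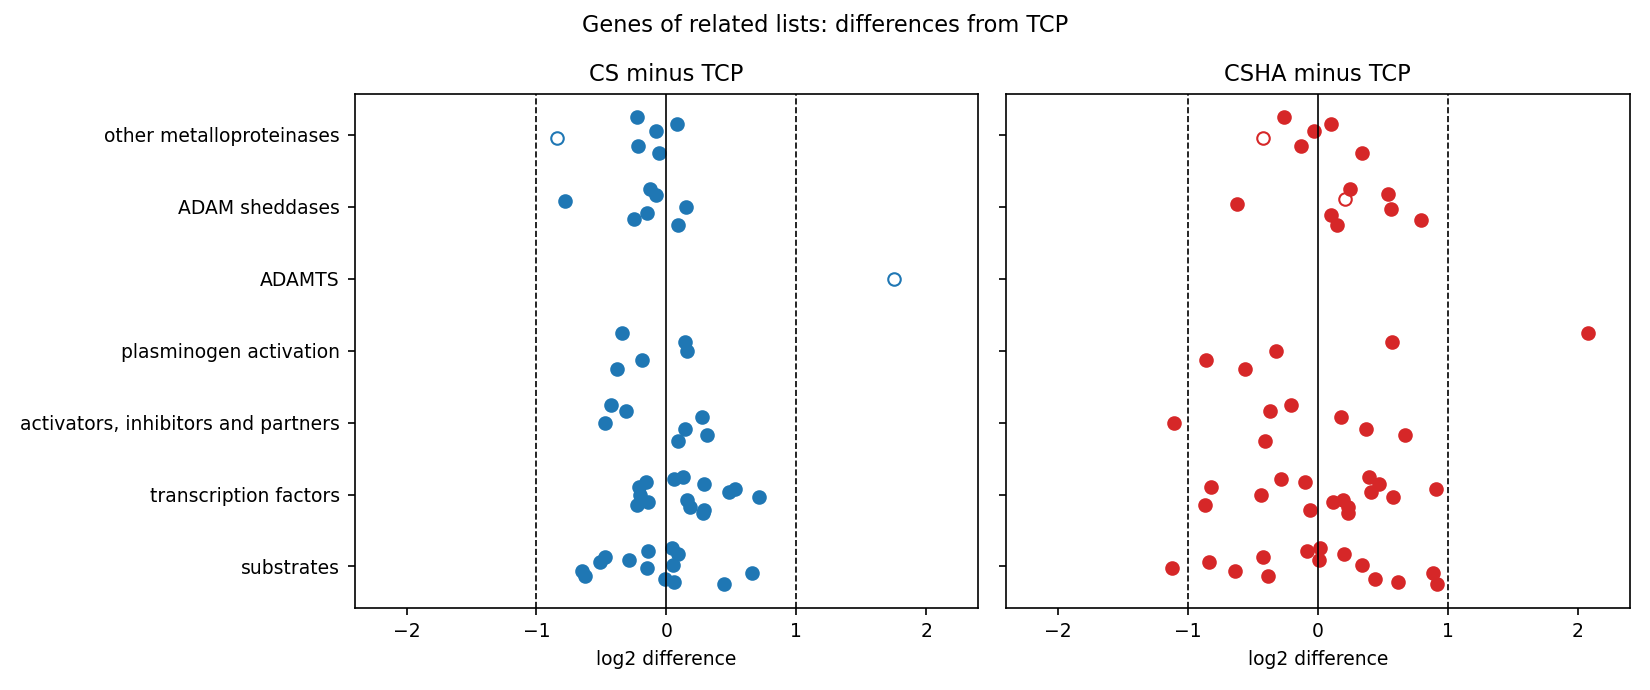
Log2 difference from TCP on CS and on CSHA of the genes of 7 related lists, 1 point per gene, with open circles for bounds where an array was not well above background and dashed lines at a 2-fold difference. Beyond 2-fold lie ADAMTS1 on CS, at 1.75 or more, and SERPINF2, FURIN and HBEGF on CSHA, at 2.08, -1.11 and -1.12.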

How the data were processed

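The deposited scanner files hold a spot intensity per array, which the authors obtained with Agilent Feature Extraction 10.7.3.1 per the file headers (their methods name another version), and the submitters' notes name limma. The deposited series table holds log2 values, and at all 62976 spots their differences between arrays followed those of the log2 median signal, without background subtraction, up to 1 constant per pair and within 0.0001. Their centring is not stated, and 0 columns were left unused. The methods' floor of 1 and 75th percentile shift were applied to the processed signal. Outlier spots were left out and spots of a probe averaged. Accessions matched a RefSeq symbol (GRCh38.p14, names and order only) for 30000 probes. The brightest probe stood for a gene. Where 1 array was at background, the difference is a bound, taken against the lowest signal well above background. There was no test. The spread for single spots came from 25 replicated probes. The calculation was checked on simulated arrays. In all, 12 alternatives were computed, 1 of them added after seeing the data. The members, the lists and the promoter motifs were chosen with earlier results of these data known. The genes named are the 10 members and, from each list, those past 2-fold by the reported values, the highest and the lowest, with a few others named for their role after their values were seen. No gene with a like pattern is named, since that rule took members past 2-fold. The tools were Python 3.11.15 with pandas 2.3.3 and numpy 2.4.6, and limma 3.58.1 in R 4.3.3.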

Additional observations from a re-analysis of the deposited data

How the results depend on the processing

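Of 210 values of single genes under the alternatives, 201 had the sign reported, and the 9 others were MMP9 and MMP14 between CSHA and CS with spike-in scaling, normexp and the deposited values, and MMP15 and TIMP1 with spike-in scaling. MMP14 between CSHA and CS was at 0.14 with spike-in scaling, 0.055 with normexp and 0.043 with the deposited values. With spike-in scaling, MMP15 was at 0.23 on CSHA against TCP and 0.30 against CS, and TIMP1 at 0.092 against CS. Spike-in scaling raised every difference of CSHA from CS by 0.38 and from TCP by 0.44, and the changes of sign at that setting are this shift. The cause of the changes of sign with normexp and the deposited values was not tested. Normexp with its offset and the deposited values draw dim probes together by construction, and what this did to the signs was not tested.

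The median of the genes between CS and TCP was -0.0041 with no filter on dim probes, which adds the 3 undetected genes, and 0.042 with the deposited values. Between CSHA and TCP it was 0.74 with spike-in scaling, where the median of all genes was 0.57, 0.11 with no filter, 0.18 with quantile normalization, 0.16 with normexp and 0.12 with the deposited values. Between CSHA and CS it was -0.087 as reported, 0.30 with spike-in scaling, 0.065 with normexp and 0.085 with the deposited values. No gene was past 2-fold by any setting but spike-in scaling, where 1 gene, TIMP2, was higher on CSHA than on CS, at 1.01. Of all 14426 genes compared between the membranes with that scaling, 1009 were at least 2-fold higher on CSHA. At 1.5-fold, 1 gene was higher on CS than on TCP (MMP14) and 1 on CSHA than on CS (TIMP2), and at 3-fold none was. The share of all genes past 1.5-fold was not computed. Differences at least as large as that of MMP14 were found for 8.4% of all genes between CS and TCP. As large as that of TIMP2 were those of 13.1% between the membranes, so neither count sets these genes apart. Signal over background limits MMP9 and MMP14, which lie within a few-fold of the lowest detected signals. No paired analysis was possible because each group has 1 array and the labels give no replicate numbers.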
